A study of Mus musculus with 10 samples.

Results

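Squamous differentiation was followed through 10 genes that are not keratins, Trp63, Ivl, Sprr1a, Tgm1, Dsg3, Dsc3, Pkp1, Fabp5, Ly6d and Sfn, out of 27826 gene names on the array. They were found by gene name in the newer annotation of the array, which gave 15 probes. Of these probes 12 were well above background (the scanner software's flag for a spot clearly brighter than its surroundings) on both arrays of at least 1 group, and they covered 9 of the 10 genes. The study placed RNA from whole ileum, the stretch of small intestine before the colon, of C57BL/6 mice aged 6 to 8 weeks on 10 arrays, 2 in each of 5 groups. Mice with the doxycycline-inducible Sox2 transgene (TetON-Sox2) were left untreated (Sox2 -DOX) or received doxycycline (Sox2 +DOX). The other groups all received doxycycline: controls with the rtTA transactivator but no TetOP-Sox2 transgene (rtTA +DOX), TetON-Oct4 mice (Oct4 +DOX) and TetON-Sox2 X TetON-Oct4 mice (Sox2xOct4 +DOX). Doxycycline was given for 2 days at 2 mg/ml in water with 1% sucrose. Sox2 and Oct4 are transcription factors of pluripotent stem cells, and Sox2 is also active in the foregut, from which esophagus and stomach arise. The labels do not name the promoter that drives rtTA, so the cells that carried the transgenes are not known here, nor do they state whether a group's 2 arrays represent different mice. The p-values then measure the spread between these arrays, which may be technical outside Oct4 +DOX, whose 2 arrays differed in Y-linked genes.

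Squamous epithelium lines skin, mouth, esophagus and forestomach and is absent from normal ileum, where a single layer of columnar cells lines the gut. In squamous layers, p63, the protein of Trp63, is made in basal cells and keeps them able to renew. Cells that leave the basal layer tighten their desmosomes, in which Dsg3, Dsc3 and Pkp1 take part, and lay involucrin (Ivl) and small proline-rich proteins (such as Sprr1a) under the membrane, where transglutaminase 1 (Tgm1) cross-links them into the cornified envelope. Fabp5 carries fatty acids in the epidermis, Ly6d is a surface protein of stratified epithelia that B lineage cells also carry, and Sfn encodes stratifin (14-3-3 sigma), an adaptor protein abundant in differentiating keratinocytes.

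Ivl and Sprr1a lie in the same cluster of envelope genes on chromosome 3, where their probes are 87.4 kb apart on build NCBI36/mm8, the build of the array's newer annotation. Their promoters are shown because these genes, of one cluster and one structure, gave different values on the arrays. The lines give the 250 bases before the start site, on the minus strand of GRCm38.p6 from RefSeq (chr3:92573736-92573985 for Ivl and chr3:92485882-92486131 for Sprr1a), with matches to the AP-1 motif in capitals.
Ivl: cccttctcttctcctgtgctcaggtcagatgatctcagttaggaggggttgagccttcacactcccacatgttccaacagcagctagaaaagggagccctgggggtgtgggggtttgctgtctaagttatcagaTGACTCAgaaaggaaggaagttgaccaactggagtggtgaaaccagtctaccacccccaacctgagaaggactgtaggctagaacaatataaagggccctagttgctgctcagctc
Sprr1a: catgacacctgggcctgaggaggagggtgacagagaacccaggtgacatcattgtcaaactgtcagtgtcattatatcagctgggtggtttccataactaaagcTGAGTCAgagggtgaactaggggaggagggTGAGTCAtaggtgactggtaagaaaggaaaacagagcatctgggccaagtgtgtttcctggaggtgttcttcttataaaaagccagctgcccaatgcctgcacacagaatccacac
The AP-1 motif (TGANTCA, searched on both strands, as were all motifs) was found once in the Ivl window, 116 bases before the start, and at 146 and 116 bases before the start of Sprr1a. The motif occurs in 6.75% of all 32851 promoter windows of that length. A TATA box (TATAAA, in 12.4% of windows) was found 29 bases before the Ivl start and 43 bases before the Sprr1a start. The SOX motif ACAATG, present in 10.69% of windows, had 1 match in Sprr1a, at 201 bases, and 0 in Ivl. The short motif CACCC (KLF, in 52.0% of windows) had 2 matches in Ivl and 4 in Sprr1a, of which 1 overlapped an AP-1 match. RefSeq windows were found for 4 of the 10 genes, and those of Sfn and Tgm1 held 0 AP-1, SOX or TATA box matches and 1 CACCC match in each of their 3 windows. A match describes letters only and shows no binding.

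The first 30 bases of some 60-base probes are also shown, since the probes of Trp63 and of Sfn did not give the same pattern. The Trp63 probes lie on chromosome 16, and capitals are not used in these lines.
Trp63 probe A_51_P216550 (positions 25807275 to 25807334): caaaaggtactttcttatagacatgatact
Trp63 probe A_52_P338796 (positions 25782981 to 25783040): cagtcccatataccatgcacttaactcttt
Trp63 probe A_52_P17264 (positions 25780651 to 25781428): tcggaggaatgaacagacgtccaattttaa
Sfn probe A_52_P334188 (chromosome 4, 132873160 to 132873219): tgaggactcctacaaggacagcaccctcat
Sfn probe A_51_P213940 (chromosome 11, 98542759 to 98542812): ggattttgcctttcccaaaccctgaatgtt
Sfn probe A_52_P334191 (chromosome 8, 74452988 to 74453047): catcatcgattctgcccggtcagcctacca
The array's annotation assigns the Sfn probes to 1 transcript but places them on 3 chromosomes, and RefSeq has the Sfn promoter on chromosome 4.

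Between 63.5 and 70.5% of probes on an array were well above background, the array's 75th percentile lay at signals of 544.1 to 1614, and the 2 arrays of a group correlated at 0.959 to 0.984 over the probes kept. Pou5f1 (Oct4) lay at 4.79 and 6.20 on the Oct4 +DOX arrays and at 0.92 and 2.64 on the Sox2xOct4 +DOX arrays, on the log2 scale over the array's 75th percentile that is used for all levels here, and was not well above background elsewhere. These groups did not overlap, so a comparison of Sox2xOct4 +DOX with Oct4 +DOX also differs in the level of Pou5f1. The Sox2 probe was well above background on 0 of 10 arrays and so gives no check of the Sox2 labels. All 11 enterocyte markers were well above background on every array. The Sox2 -DOX and Sox2 +DOX arrays shared slide 1 and the rtTA and Sox2xOct4 arrays slide 2, with Oct4 alone on slide 3, so slide and group cannot be told apart in any other comparison. The Y-linked Ddx3y and Eif2s3y were well above background on all 4 arrays of slide 1, on 0 of 4 of slide 2 and on 1 of the 2 Oct4 arrays, so comparisons between slides also differ in the sex of the animals. Across the Oct4 arrays Ddx3y ran from -7.94 to 0.22 and Eif2s3y from -7.86 to 1.78. The 2 Oct4 arrays thus represent different mice, and their spread includes sex.

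Between 2 and 3 of the 9 measured genes rose in each of the 3 comparisons with a control, and none was called in all 3. With Sox2 alone, Ivl and Fabp5 rose against Sox2 -DOX (2 of 9, 0 fell), where 7.75% of all 19206 genes tested were called, 3% higher and 4.74% lower. Doxycycline with its sucrose and induction of the transgene cannot be told apart in this comparison. With Sox2 and Oct4 together, Trp63, Pkp1 and Fabp5 rose against rtTA +DOX (3 of 9, 0 fell, against 6.36% of all genes, 3.19% higher and 3.18% lower). With Oct4 alone against rtTA +DOX, Trp63 and Ly6d rose (2 of 9, 0 fell, against 1% of all genes, 0.719% higher and 0.286% lower). All comparisons with Oct4 +DOX were between slides, unlike the 2 above. Called means an adjusted p under 0.05 in limma, and both comparisons with rtTA +DOX share its arrays. Ivl and Fabp5 passed the filter on dim probes only through Sox2 +DOX, and Trp63 only through the groups with Oct4. Against a group where they were dim they could only be called as rises, so the counts depend in part on this filter. The same filter was applied to all genes. The median log2 change of the 9 genes was -0.33 with Sox2, 1.83 with both factors and 0.23 with Oct4, against -0.11, 0.07 and 0.01 over all genes. With dim values set to the lowest signal well above background the medians of the 9 were -0.33, 1.72 and 0.76. The 0.76 is the value of Fabp5, which was dim in both groups. It therefore reflects the floors of the arrays and not a measured change. Also between slides, Sox2 +DOX against rtTA +DOX gave 2 higher and 0 lower of the 9 (Ivl and Fabp5). Of all genes 8.38% were called, 3.24% higher and 5.13% lower. Sox2xOct4 +DOX against Oct4 +DOX gave 2 higher (Pkp1 and Fabp5) and 1 lower (Ly6d), where 4.36% were called, 2.37% higher and 1.99% lower. Against Sox2 +DOX it gave 2 higher (Trp63 and, by its brighter probe only, Dsg3) and 0 lower. Of all genes 2.59% were called, 1.75% higher and 0.838% lower. All these counts take Dsg3 by its brighter probe. Its second probe, tested on its own, was called higher with Sox2 (4.66 on the log2 scale) and with both factors (3.02). Groups did not overlap for 7, 8 and 3 of the 9 genes, where 66.4, 52.7 and 46.3% of all genes did not. In ileum tissue, fewer cells of a type and less RNA per cell cannot be told apart.

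**Figure D1:**
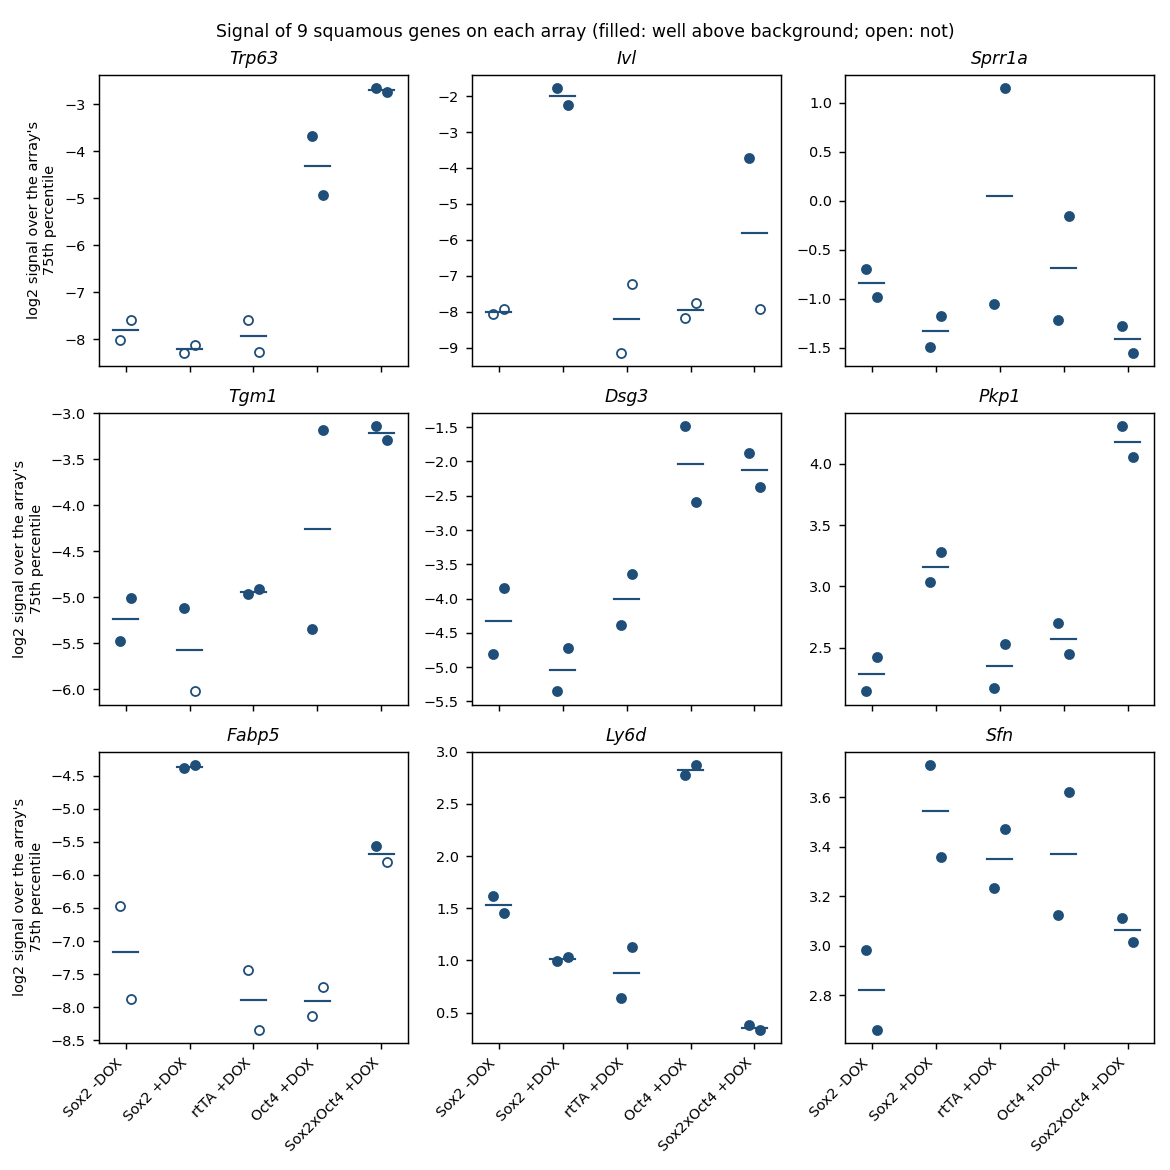
Level of 9 genes on each array (y axis: log2 level relative to the array's 75th percentile, with its own range in each panel; x axis: group). Points are arrays, filled where well above background and open where not, and lines are means of 2 arrays. Each gene is shown by its brightest probe. Trp63 is filled in the Oct4 +DOX and Sox2xOct4 +DOX groups, Ivl on both Sox2 +DOX arrays and 1 Sox2xOct4 +DOX array.

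Trp63, the regulator at the head of the program, was measured where Oct4 was induced and not where Sox2 alone was. Its probe (A_51_P216550) gave -3.67 and -4.93 on the Oct4 +DOX arrays and -2.65 and -2.75 on the Sox2xOct4 +DOX arrays, all well above background. The level was -8.01 and -7.58 in Sox2 -DOX, -8.29 and -8.13 in Sox2 +DOX, and -7.58 and -8.27 in rtTA +DOX, and none of these 6 was well above background. The groups with Oct4 thus stood apart from the 3 others with no overlap.

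Where a gene is dim in 1 group, its true level there is unknown and only a lower bound of the fold can be had, written "at least", with the dimmest signal that passed the background flag in place of the dim value. Trp63 rose at least 16.4-fold with both factors against rtTA +DOX (fitted log2 change 5.23 ± 0.44 SE, adjusted p = 0.00123). With Oct4 alone it rose at least 5.39-fold (3.62 ± 0.44, adjusted p = 0.0106), between slides. Sox2xOct4 +DOX exceeded Sox2 +DOX at least 12.5-fold (5.51 ± 0.44, adjusted p = 0.00182), a comparison between slides. The level with both factors exceeded that with Oct4 alone by 1.61 ± 0.44, which did not pass the test (adjusted p = 0.0808). In other settings the log2 change with both factors ran from 1.07 to 5.57, so the 16.4-fold bound depends on the processing. This rise kept its call in 20 of 20 other settings. The rise with Oct4 alone did not when either rtTA array was left out (3.97, adjusted p = 0.0547, without replicate 1, and 3.28, adjusted p = 0.0872, without replicate 2), nor after normexp background correction joined with quantile normalization (0.51, adjusted p = 0.282).

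On 0 of 10 arrays was either of the other Trp63 probes well above background. They lie 24.2 and 25.8 kb from the measured probe, and the positions of 1 of them span 778 bases, more than its own 60. The Trp63 result is therefore that of 1 probe of 3.

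The changes of Trp63 on slides 1 and 2 were also set against each other. The terms are unlike, since Sox2 +DOX was set against its untreated genotype and Sox2xOct4 +DOX against another genotype with doxycycline. Subtracting the second change from the first gave -5.64 ± 0.62 (adjusted p = 0.023), where 0.167% of all genes were called in this test, 0.0208% with a higher value and 0.146% with a lower one. It was the 1 gene of the 9 to pass. In 3 of these 4 groups Trp63 was dim, so the size of this difference is a fitted value and not a measured one. The call was lost in 7 of the 10 fits that left out 1 array, where values lay between -5.99 and -5.30, and after normexp correction with quantile normalization (-1.12, adjusted p = 0.21).

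Of the envelope genes, Ivl rose with Sox2, while Sprr1a and Tgm1 did not pass the test in any comparison. The Ivl probe (chromosome 3, 92656848 to 92656907) gave -1.77 and -2.23 in Sox2 +DOX, both well above background. It gave -3.73 on the first Sox2xOct4 +DOX array, well above background, and -7.91 on the second, which was not. The other 6 arrays lay between -9.15 and -7.24, none well above background. The Sox2 +DOX arrays were thus the highest, and the Sox2xOct4 +DOX arrays overlapped the dim groups.

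Induction of Sox2 raised Ivl at least 15.5-fold over Sox2 -DOX (6.00 ± 1.17, adjusted p = 0.0227). Over rtTA +DOX the bound was 26.7-fold (6.20 ± 1.17, adjusted p = 0.0192), between slides, a call lost without Sox2 +DOX replicate 1 (5.96, adjusted p = 0.118), rtTA replicate 1 (5.24, adjusted p = 0.144) or rtTA replicate 2 (7.15, adjusted p = 0.0524). The difference between Sox2xOct4 +DOX and rtTA +DOX was 2.38 ± 1.17 (adjusted p = 0.259), and it passed the test without the second Sox2xOct4 +DOX array (4.47, adjusted p = 0.0216). The rise with Sox2 lost its call without Sox2 -DOX replicate 1 (5.92, adjusted p = 0.125), Sox2 -DOX replicate 2 (6.08, adjusted p = 0.103) or Sox2 +DOX replicate 1 (5.77, adjusted p = 0.142). The difference of the responses of Ivl, 3.63 ± 1.65, did not pass the test (adjusted p = 0.546).

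Sprr1a, a cross-linked precursor of the envelope, was well above background on all 10 arrays, also without doxycycline. It gave -0.70 and -0.98 in Sox2 -DOX, -1.49 and -1.17 in Sox2 +DOX, and -1.28 and -1.55 in Sox2xOct4 +DOX. In Oct4 +DOX it gave -1.21 and -0.16, and in rtTA +DOX -1.05 and 1.15. The second rtTA array was the highest of the 10 and decided the mean of its group. The change with both factors, -1.46 ± 0.66 (adjusted p = 0.22), was -0.36 without that array (adjusted p = 0.736), and with Sox2 the change was -0.49 ± 0.66 (adjusted p = 0.658).

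Tgm1, the cross-linking enzyme, gave -3.14 and -3.29 in Sox2xOct4 +DOX against -4.97 and -4.91 in rtTA +DOX. The difference of 1.72 ± 0.64 did not pass the test (adjusted p = 0.147), although these groups did not overlap, and it passed without either Oct4 +DOX array, which lowers the estimated spread (adjusted p = 0.043). In Oct4 +DOX its arrays disagreed, at -5.34 and -3.18. In Sox2 -DOX it gave -5.48 and -5.01, and in Sox2 +DOX -5.12 and -6.02, the last not well above background, with a change of -0.33 ± 0.64 (adjusted p = 0.764).

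**Figure D2:**
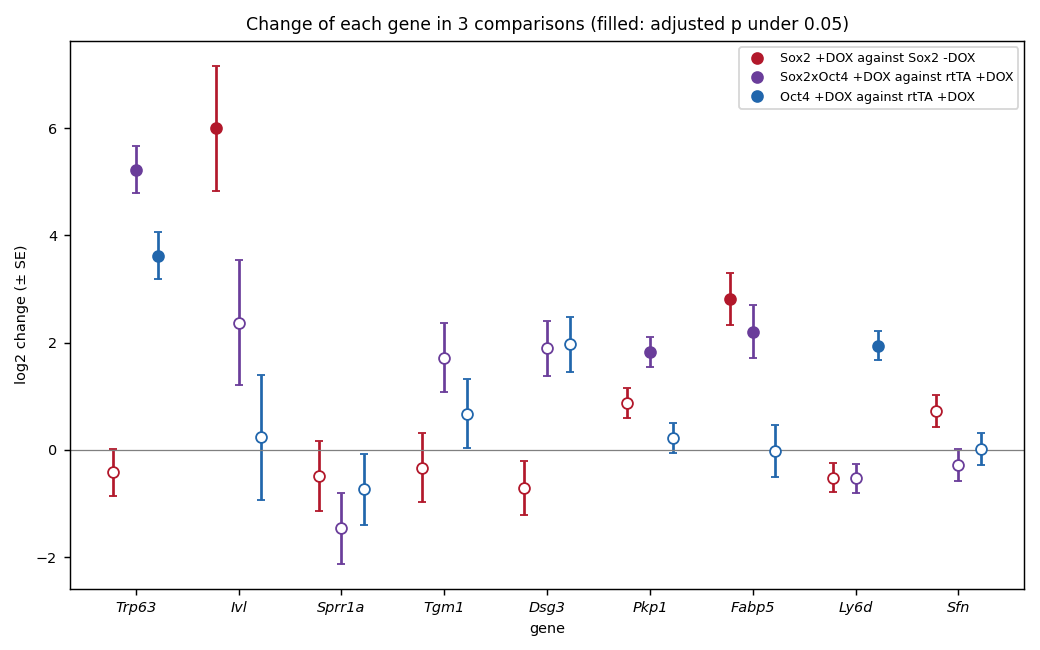
Change of the 9 genes in 3 comparisons (x axis: gene; y axis: log2 change from limma, with bars of 1 SE). Points are filled where the adjusted p was under 0.05. Trp63 rises by 5.23 with both factors and 3.62 with Oct4, and Ivl by 6.00 with Sox2. The changes of Sprr1a, Tgm1, Dsg3 and Sfn are all open. Each gene is shown by its brightest probe. The second Dsg3 probe, not shown here, was called higher with Sox2 and with both factors.

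Among the desmosome genes, Pkp1 rose with both factors, the Dsg3 probes disagreed, and Dsc3 was not measured. Pkp1, plakophilin 1, links desmosomal cadherins to desmoplakin. Its probe on chromosome 1 (137687861 to 137687920) gave 4.30 and 4.05 in Sox2xOct4 +DOX and 2.17 and 2.53 in rtTA +DOX. It gave 3.04 and 3.28 in Sox2 +DOX, 2.14 and 2.42 in Sox2 -DOX, and 2.70 and 2.45 in Oct4 +DOX. The order was therefore both factors, then Sox2 +DOX, then the other 3 groups, whose neighbours in the order overlapped.

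Pkp1 rose 3.55-fold with both factors against rtTA +DOX (1.83 ± 0.28, adjusted p = 0.0125) and was 3.04-fold higher than in Oct4 +DOX (1.60 ± 0.28, adjusted p = 0.0223). Its difference of 0.87 ± 0.28 with Sox2 alone did not pass the test (adjusted p = 0.0983), and with Oct4 alone the difference was 0.22 ± 0.28 (adjusted p = 0.80). The call with both factors was lost without rtTA replicate 1 (1.65, adjusted p = 0.114), rtTA replicate 2 (2.01, adjusted p = 0.0576) or Sox2xOct4 replicate 1 (1.70, adjusted p = 0.0598), and in a fit of the 2 groups alone (adjusted p = 0.0642). The call against Oct4 +DOX was lost without Oct4 replicate 1 (1.73), Oct4 replicate 2 (1.48) or Sox2xOct4 replicate 1 (1.48).

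Dsg3, desmoglein 3, is a desmosomal cadherin of the deep layers of squamous epithelium. Its brighter probe (A_51_P420338, chromosome 18, 20690272 to 20690331) was well above background on all 10 arrays. It gave -1.49 and -2.60 in Oct4 +DOX and -1.88 and -2.37 in Sox2xOct4 +DOX, against -4.39 and -3.64 in rtTA +DOX. In Sox2 -DOX it gave -4.80 and -3.85, and in Sox2 +DOX -5.35 and -4.72. The 4 arrays with Oct4 were the 4 highest.

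By this probe, and not by the second one below, Dsg3 was higher in Sox2xOct4 +DOX than in Sox2 +DOX, between slides. The difference was 7.55-fold (2.92 ± 0.51, adjusted p = 0.0281). The differences from rtTA +DOX, 1.89 ± 0.51 with both factors (adjusted p = 0.0663) and 1.97 ± 0.51 with Oct4 (adjusted p = 0.133), did not pass the test. The call against Sox2 +DOX was lost without either array of Sox2 +DOX (2.60 and 3.23) or of Sox2xOct4 +DOX (2.67 and 3.16).

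The second Dsg3 probe (A_52_P259402, 20683037 to 20683096), 7.18 kb away, gave another order. It lay at -2.31 and -4.05 in Sox2 +DOX, both well above background, and at -5.32 (well above) and -5.88 (not) in Sox2xOct4 +DOX. The other 6 arrays lay between -9.04 and -7.61, and 0 of them was well above background. Tested with every probe on its own (6.85% of 28761 probes called), it rose at least 6.83-fold with Sox2 (4.66 ± 0.56, adjusted p = 0.00448). With both factors it rose at least 2.20-fold (3.02 ± 0.56, adjusted p = 0.022, with 6.07% of probes called). Against rtTA +DOX the Sox2 +DOX arrays were at least 11.7-fold higher by this probe (adjusted p = 0.00224, with 7.64% of probes called). Sox2xOct4 +DOX against Sox2 +DOX gave -2.41 ± 0.56 by this probe. That difference did not pass the test (adjusted p = 0.0645), although the groups did not overlap. With Sox2 the brighter probe gave -0.71 ± 0.51 (adjusted p = 0.40). The values of the Dsg3 probes thus had opposite signs with Sox2 and in Sox2xOct4 +DOX against Sox2 +DOX. The annotation names a different transcript for each (AK029018 and NM_030596). Dsc3, desmocollin 3, the partner of Dsg3, lay between -9.21 and -7.86 and was not well above background on any array.

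**Figure D3:**
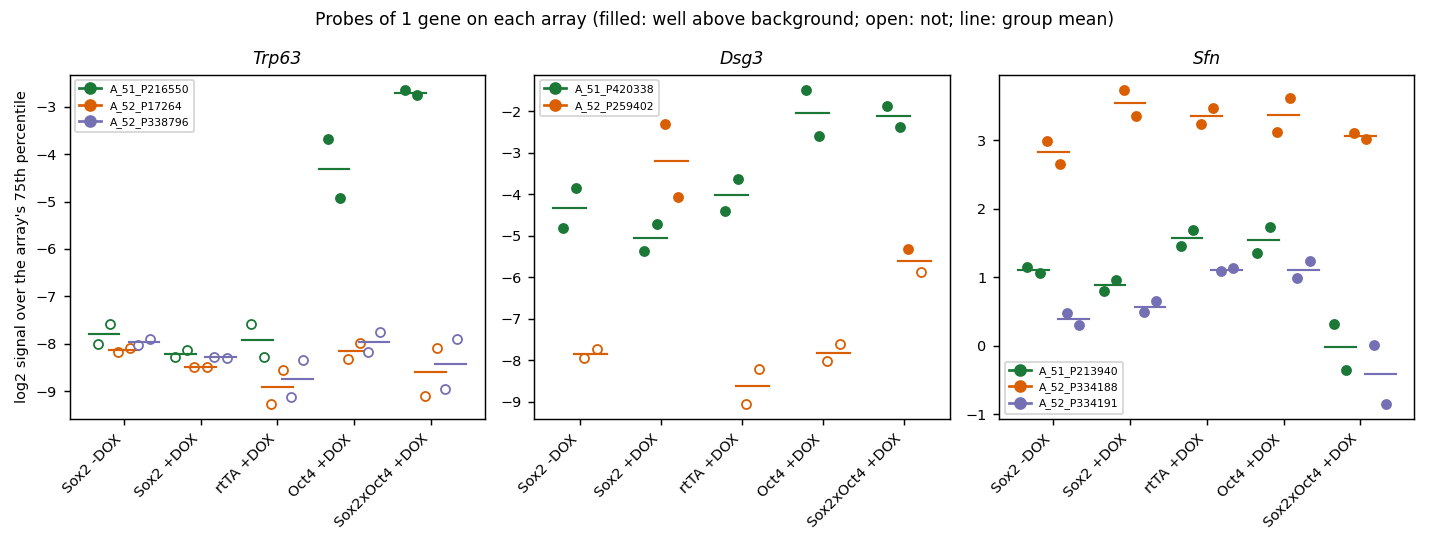
Level by probe for 3 genes with several probes (x axis: group; y axis: log2 level relative to the array's 75th percentile). Points are arrays, filled where well above background, and lines are means of 2 arrays. A single Trp63 probe is measured, 1 Dsg3 probe is highest in Sox2 +DOX and the other with Oct4, and 2 of the 3 Sfn probes are lowest in Sox2xOct4 +DOX.

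Fabp5 rose in both groups with Sox2 and was not measured in the others. Its probe (chromosome 3, 9998905 to 9998964) gave -4.39 and -4.34 in Sox2 +DOX, and -5.57 (well above background) and -5.81 (not) in Sox2xOct4 +DOX. The other 6 arrays lay between -8.34 and -6.48, none well above background. The Sox2 +DOX arrays were highest and the Sox2xOct4 +DOX arrays next, with no overlap between these groups or with the rest.

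Fabp5 rose at least 3.02-fold with Sox2 (2.81 ± 0.49, adjusted p = 0.0151) and at least 2.07-fold with both factors, where 1 of 2 arrays measured it (2.21 ± 0.49, adjusted p = 0.038). Against rtTA +DOX the Sox2 +DOX arrays were at least 5.19-fold higher (3.53 ± 0.49, adjusted p = 0.00664). The call with Sox2 was lost after normexp correction with quantile normalization (0.47, adjusted p = 0.0582), in a fit of the 2 groups alone (adjusted p = 0.0606), without Sox2 +DOX replicate 1 (2.84, adjusted p = 0.0954) and without Sox2 -DOX replicate 2 (2.12, adjusted p = 0.0768). The call with both factors was kept in 6 of 20 other settings. It was lost without any 1 array of Sox2 +DOX (2.21), Oct4 +DOX (2.21), rtTA +DOX (2.66 without replicate 1 and 1.76 without replicate 2) or Sox2xOct4 +DOX (2.09 and 2.33). Against Oct4 +DOX, where it was dim on both arrays, Fabp5 in Sox2xOct4 +DOX was at least 1.22-fold higher (fitted 2.22 ± 0.49, adjusted p = 0.0448). With dim values set to the floor that difference was 0.29 (adjusted p = 0.615). The call was kept in 4 of 19 other settings and lost without any 1 array outside Sox2 -DOX (2.00 to 2.44).

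Fabp5 is also made by macrophages and fat cells. The summed linear level of 8 macrophage markers, relative to the 75th percentile, was 6.27 to 9.63 in Sox2 -DOX and 7.06 to 9.62 in Sox2 +DOX. In rtTA +DOX it was 10.01 to 10.15 and in Sox2xOct4 +DOX 9.35 to 12.9. The sum of 7 adipocyte markers was 19.3 to 24.9 in Sox2 -DOX and lower in Sox2 +DOX, at 2.89 to 5.75. It was 16.8 to 31.5 in rtTA +DOX and 2.47 to 44.9 in Sox2xOct4 +DOX. With Sox2, 1 of the 8 macrophage markers rose (Cd68, named after its values were seen, by 2.32 on the log2 scale, adjusted p = 0.0143) and 1 of the 7 adipocyte markers fell. With both factors 0 of either list was called. Over all genes, 3% were called higher and 4.74% lower with Sox2, and 6.36% were called with both factors. The part of these cells in the Fabp5 results was not tested.

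Ly6d had its highest level with Oct4 alone. Its probe (chromosome 15, 74589376 to 74589435) gave 2.78 and 2.87 in Oct4 +DOX and 0.64 and 1.13 in rtTA +DOX. It gave 0.38 and 0.33 in Sox2xOct4 +DOX, 1.62 and 1.45 in Sox2 -DOX, and 0.99 and 1.03 in Sox2 +DOX. Oct4 +DOX was above all others and Sox2xOct4 +DOX below all others, while Sox2 +DOX and rtTA +DOX overlapped.

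Between slides, Ly6d rose 3.85-fold with Oct4 (1.94 ± 0.27, adjusted p = 0.019). Also between slides, it was 5.54-fold lower in Sox2xOct4 +DOX than in Oct4 +DOX (-2.47 ± 0.27, adjusted p = 0.00394). Its difference with Sox2, -0.52 ± 0.27, and with both factors, -0.53 ± 0.27, did not pass the test (adjusted p = 0.252 and 0.282). The rise with Oct4 lost its call in a fit of the 2 groups alone (adjusted p = 0.0765). It was also lost without Oct4 replicate 1 (1.99), Oct4 replicate 2 (1.89), rtTA replicate 1 (1.70) or rtTA replicate 2 (2.19). The fall from Oct4 +DOX to Sox2xOct4 +DOX kept its call without any 1 array (-2.52 to -2.42), and lost it in a fit of the 2 groups alone (adjusted p = 0.0732). Because B lineage cells carry Ly6d, the summed level of 9 B and plasma cell markers is given beside it, and its part in the result was not tested. It was 28.9 to 35.7 in Oct4 +DOX, 59.1 to 65.7 in rtTA +DOX and 24.6 to 30.2 in Sox2xOct4 +DOX. With Oct4, 0 of these 9 markers was called, where 1% of all genes were. Their median log2 change was 0.31, opposite in sign to the change of the sum.

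Sfn was well above background on all 10 arrays with each of its 3 probes. The brightest, on chromosome 4, gave 3.73 and 3.36 in Sox2 +DOX against 2.98 and 2.66 in Sox2 -DOX, a difference of 0.72 ± 0.30 that did not pass the test (adjusted p = 0.167) but did after normexp correction with quantile normalization (0.82, adjusted p = 0.0421). It gave 3.11 and 3.01 in Sox2xOct4 +DOX, 3.23 and 3.47 in rtTA +DOX, and 3.12 and 3.62 in Oct4 +DOX, with a difference of -0.29 ± 0.30 with both factors (adjusted p = 0.605). These levels lay close together in all groups.

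The other probes annotated as Sfn fell in Sox2xOct4 +DOX when every probe was tested on its own. The probe placed on chromosome 11 gave 0.32 and -0.35 there against 1.46 and 1.69 in rtTA +DOX (-1.59 ± 0.32, adjusted p = 0.029). The probe placed on chromosome 8 gave 0.02 and -0.84 against 1.09 and 1.13 (-1.52 ± 0.33, adjusted p = 0.0371). Against Oct4 +DOX the changes were -1.56 and -1.52 (adjusted p = 0.0356 and 0.0445, with 4.1% of probes called). Which transcripts these 2 probes detect is not settled, since they are placed away from the Sfn gene, and the probe on chromosome 4 was not called in either comparison.

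Between the control groups, rtTA +DOX and Sox2 -DOX, 0 of the 9 genes was called by limma, as were 0% of all genes, with 1080 of 19206 genes at an unadjusted p under 0.05. The controls also differ in slide, doxycycline and sex.

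Other genes of the envelope and barrier moved in part with Sox2. Of 22 measured genes of that list, 4 rose and 1 fell with Sox2, 0 passed with both factors, and 3 rose with Oct4. The same comparisons called 7.75, 6.36 and 1% of all genes, 3, 3.19 and 0.719% of them as higher. Median log2 changes of the list were 0.51, 0.70 and 0.32. With Sox2, Ppl (periplakin, an envelope plakin) rose 3.90-fold (adjusted p = 0.0279), Anxa8, an annexin, 23.0-fold (adjusted p = 0.0268) and Serpinb5 (maspin) 4.93-fold (adjusted p = 0.0252). Ly6g6c was the fourth (6.18-fold, adjusted p = 0.0405), and Tgm5, another transglutaminase, fell 5.34-fold (adjusted p = 0.0169). For Anxa8 the Sox2 +DOX arrays disagreed, at 3.23 and -0.21, against -2.82 and -3.22 in Sox2 -DOX. With Oct4, between slides, Dmkn (dermokine, secreted by upper epidermal layers) rose 45.9-fold from -5.04 and -4.62 to 0.14 and 1.24 (adjusted p = 0.00142). The others were Lypd3 (11.2-fold, adjusted p = 0.0199) and Krtdap, a protein of differentiating keratinocytes (at least 3.55-fold, adjusted p = 0.0182). Ly6g6c, Lypd3 and Krtdap are outside the rule for named genes and were chosen after their values were seen.

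Some genes of the basal layer list fell in the groups with Sox2, while most did not pass the test. Of 16 measured genes, 1 rose and 3 fell with Sox2, and 0 rose and 4 fell with both factors, while 0 passed with Oct4. Of all genes, 3% were called higher and 4.74% lower with Sox2, and 3.19% and 3.18% with both factors. With Oct4 1% were called. Lamb3 and Lama3, laminin chains of the hemidesmosome, fell by 2.71 and 2.55 on the log2 scale with Sox2 (adjusted p = 0.00893 and 0.0426) and by 2.31 and 2.67 with both factors (adjusted p = 0.018 and 0.0419). Dst (dystonin, a hemidesmosome linker) fell by 1.86 and 1.78 (adjusted p = 0.022 and 0.0283), and the integrin Itga3 fell by 1.46 with both factors (adjusted p = 0.0214). Trim29 rose at least 7.06-fold with Sox2 (adjusted p = 0.0453). Lamb3, Lama3, Dst and Itga3 are also expressed by simple epithelia such as that of the gut. Trim29 was not well above background on any array of Sox2 -DOX or rtTA +DOX. The 12 other measured desmosome and adherens genes gave 0 calls in each of the 3 comparisons, with medians of -0.59, -0.53 and 0.22. In these comparisons 7.75, 6.36 and 1% of all genes were called.

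Among 20 measured transcription factors of stratified epithelium, Grhl1, a grainyhead factor that controls desmosomal cadherins, rose in both settings with Sox2. It gave 1.15 and -0.87 in Sox2 +DOX against -2.85 and -2.93 in Sox2 -DOX (8.18-fold, adjusted p = 0.0196). In Sox2xOct4 +DOX it gave 1.26 and 0.71 against -2.90 and -2.74 in rtTA +DOX (3.81 on the log2 scale, adjusted p = 0.0113). Pax9, a factor of foregut epithelium, rose at least 10.9-fold with Sox2 (adjusted p = 0.0075), from dim levels to -1.14 and -3.89. Klf4, which acts in epidermis and also in gut epithelium, fell by 2.56 with Sox2 and 2.46 with both factors (adjusted p = 0.0257 and 0.0325). In all, 2 rose and 1 fell with Sox2, 1 rose and 1 fell with both, and 0 passed with Oct4. The same comparisons called 7.75, 6.36 and 1% of all genes.

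Of the 15 measured keratins beside which these genes act, 3 rose with Sox2, 1 with both factors and 1 with Oct4. The same comparisons called 3, 3.19 and 0.719% of all genes higher. Krt6a, a keratin of activated keratinocytes, was in all 3 counts (at least 373-fold, 51.1-fold and 33.6-fold). Krt5 and Krt14, the basal keratins, changed by 0.58 ± 0.34 and 0.76 ± 0.77 with Sox2 (adjusted p = 0.308 and 0.555).

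Relatives of Ly6d, Fabp5 and Sfn were also listed. The Ly6 genes had median log2 changes of 0.96 with Sox2, 0.46 with both factors and 0.74 with Oct4. With dim values set to the floor the Ly6 medians were 0.65, 0.46 and 0.60. The fatty acid binding proteins had medians of -1.55, -0.08 and 0.31, and the 14-3-3 genes 0.08, -0.06 and 0.21. Over all genes the medians were -0.11, 0.07 and 0.01, and 3, 3.19 and 0.719% were called higher. With Sox2 4.74% were called lower. Of 14 measured Ly6 genes 4 rose with Sox2 (0 fell), among them Ly6g6e (63.8-fold, adjusted p = 0.00229), which also rose with both factors (19.7-fold, adjusted p = 0.01). With Oct4 1 of the 14 rose, Lypd1 (at least 68.9-fold, adjusted p = 0.0148). Of 6 fatty acid binding proteins, Fabp1, the liver type made by enterocytes, fell 8.59-fold with Sox2 (adjusted p = 0.0317), from 1.94 and 1.38 to -1.44 and -1.44, and 0 rose. The 6 other measured 14-3-3 genes gave 0 calls in each of the 3 comparisons, where 7.75, 6.36 and 1% of all genes were called.

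**Figure D4:**
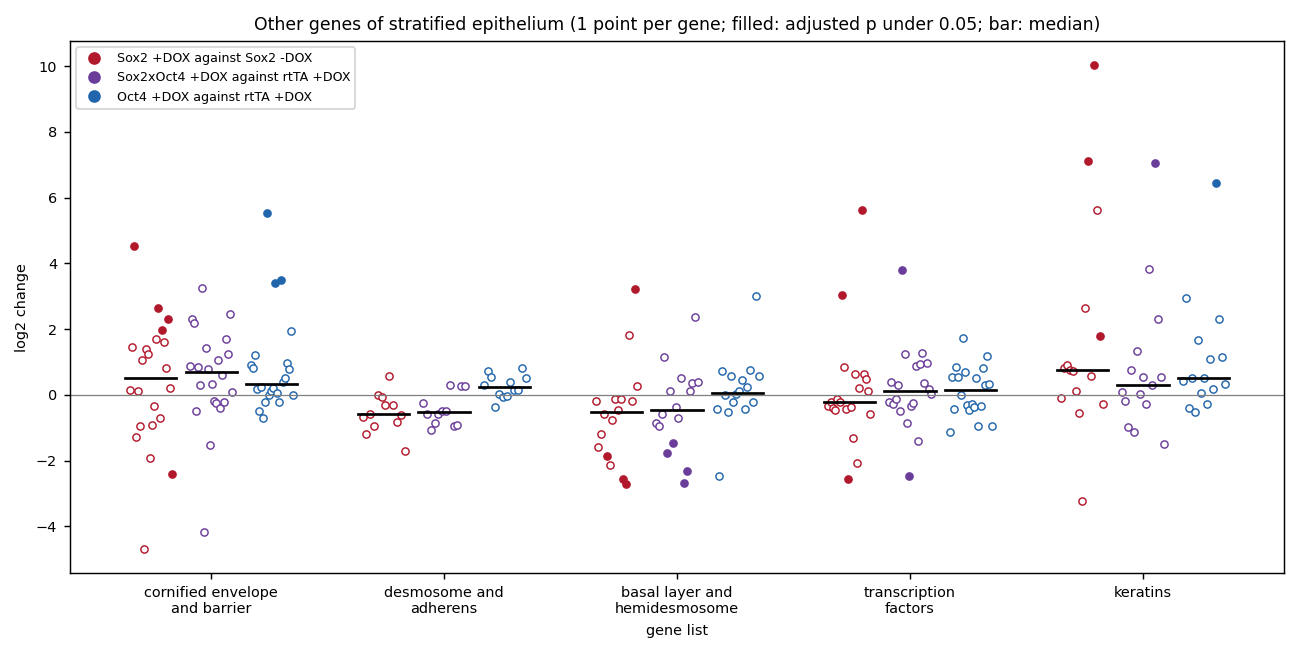
Other genes of stratified epithelium by list (x axis: list; y axis: log2 change from limma) in 3 comparisons. Each point is a gene, filled where the adjusted p was under 0.05, and bars are medians of the measured genes. The desmosome list has 0 filled points, while the basal list has 3 filled points below 0 with Sox2 and 4 with both factors.

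Markers of other squamous and foregut tissues moved with some of these groups, and their part in the results was not tested. Of 13 measured markers of skin surface, hair and sebaceous gland, 5 (Krt25, Krt71, Krt34, Scd3 and Mc5r) were not well above background on any array. The summed level of that list was 0.90 to 2.07 in 4 groups and 1.48 to 34.7 in Oct4 +DOX, where Krt10 was at 0.28 on the first array and 5.10 on the second. Trp63 and Dsg3 (brighter probe) were higher on the first Oct4 array, at -3.67 and -1.49, than on the second, while Tgm1 and Elovl3, a sebaceous gland elongase, were higher on the second. Of 11 esophagus and forestomach markers, Sprr3 was not well above background on any array, and the sum was 6.51 to 11.4 in Oct4 +DOX and 3.60 to 6.05 in Sox2 +DOX, against 2.47 to 3.17 in rtTA +DOX, 2.69 to 2.79 in Sox2 -DOX and 1.91 to 2.71 in Sox2xOct4 +DOX, where Trp63 and Pkp1 were highest. Of 9 tested markers of that list, 1 rose with Sox2, 0 with both factors and 1 with Oct4, where the median log2 change was 0.17. The same comparisons called 3, 3.19 and 0.719% of all genes higher. The one called with Oct4 was Mal, a raft protein, named after its values were seen, which gave 2.26 and 3.08 in Oct4 +DOX and was below 0 on the other 8 arrays. On the linear scale Mal made up most of the sum on both Oct4 +DOX arrays. Krt13, at 1.03 and 1.95, made up most of it on both Sox2 +DOX arrays.

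Part of the glandular stomach list rose in the groups with Sox2. Of 8 tested markers 4 rose with Sox2, 3 with both factors and 1 with Oct4, and 0 fell. The same comparisons called 3, 3.19 and 0.719% of all genes higher. Median log2 changes of the list were 1.57, 1.11 and 0.76 (0.44, 1.01 and 0.74 with dim values set to the floor). Of the 13 measured markers, 4 (Gkn1, Pgc, Gif and Cldn18) were not well above background on any array. The sum over the list was 4.99 to 19.5 in Sox2 +DOX and 14.1 to 28.3 in Sox2xOct4 +DOX, against 0.21 to 0.51 in the other 3 groups. Its part in the results for Ivl and Fabp5 was not tested. The enterocyte sum was 200 to 399 in Sox2 +DOX and 769 to 866 in Sox2 -DOX, and 303 to 730 in Sox2xOct4 +DOX and 561 to 828 in rtTA +DOX.

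The genes with the most similar profile over the 10 arrays were sought for each of the 9, by the root mean square difference of log2 values centred on the gene's own mean. The arrays share slides and groups, so this is a description. Nearest to Trp63 were Olfr713 (0.63), Olfr714 (0.71) and 4930438A08Rik (0.76), and nearest to Ivl were Expi (0.93), Hbb-bh1 (0.95) and Gm1960 (0.98). Nearest to Fabp5 were Slco4c1 (0.50), Ifitm2 (0.55) and Hebp2 (0.56), and nearest to Pkp1 Mtl5 (0.17), Zfp692 (0.23) and Cd1d1 (0.24). Ly6d was closest to Ethe1 (0.29), B130050I23Rik (0.31) and Tff1 (0.34), and Dsg3 to Fbln2 (0.39). Sprr1a was closest to Ssh1 (0.37) and Ifrd1 (0.41), Tgm1 to Ctsf (0.38) and Kif7 (0.39) among named genes, and Sfn to Mllt3 (0.10) and Psmd13 (0.13). None of the 9 had another of the 9 among its nearest 3.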

How the data were processed

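Intensity values per spot, background-subtracted by Agilent Feature Extraction and not normalized between arrays per the file headers, were deposited for 10 one-colour arrays. The headers name versions 9.5.3.1, 10.7.1.1 and 10.7.3.1 for slides 1, 2 and 3, and the submitters' processing notes 9.1. Other columns hold spot flags, per the file headers. A deposited table of normalized intensity values covers the TetON-Sox2 arrays, and 72.1 to 75.2% of its probes kept 1 ratio (within 1%) to the processed intensity.

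Control spots were removed, as were 45 to 65 spots marked as outliers on each array, and replicate spots were averaged, which left 41143 of 41174 probes. The log2 processed signal minus the array's 75th percentile was analysed. A probe entered the test if a group had both arrays well above background (28761 probes), and each gene name was represented by its brightest probe on average (19206 genes). No probe was saturated. All 5 groups were fitted together in limma 3.58.1 (R 4.3.3; 5 residual and 3.3 prior degrees of freedom), two-sided, with Benjamini-Hochberg adjustment over all genes. The precision is limited by 2 arrays per group. The fit was tested on simulated data. A bound on a fold uses, per array, the higher of the lowest signal well above background and the probe's own value. Named genes were the 10 members, up to 4 genes per list with the smallest p with Sox2 and with both factors, and the 3 nearest profiles of each member. The members, lists and tests were chosen with earlier results of these data known. The replicate numbers were checked as pairs: deviations of same-numbered arrays correlated at -0.13 to 0.27, over 0.1 in 5 of 10 pairs, so they were not used. The normexp alternative used median in place of mean spot signals for the Oct4 arrays. Alternatives are given in the closing section. Sequences are from the array files and RefSeq (GRCm38.p6), and proteins were not used here.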

Additional observations from a re-analysis of the deposited data

Results flagged for a closer look

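The change of Trp63 differed between the Sox2 and the Sox2xOct4 comparison. Its log2 change with Sox2 alone, -0.42 between groups in which it was not well above background, minus its change of 5.23 with both factors gave -5.64 (limma, adjusted p = 0.023). The first compares treated with untreated mice and the second 2 genotypes, each within 1 slide. In 3 of these 4 groups Trp63 was dim, so the size is not a measured one.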

How the results depend on the processing

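Of the 9 measured genes, the number called depended on which arrays were used. Leaving out 1 array at a time, with the lone array of a group taken to vary like the others, gave 0 to 2 called genes with Sox2, 1 to 3 with both factors, 0 to 2 with Oct4, and 1 to 2 for Sox2 +DOX against rtTA +DOX. It gave 1 to 3 for Sox2xOct4 +DOX against Oct4 +DOX, 1 to 3 against Sox2 +DOX, 0 for the controls and 0 to 1 for the difference of responses. A fit of only the groups compared, with fewer arrays for the spread, called 1 gene with Sox2, 1 with both factors, 1 with Oct4, 0 for Sox2xOct4 +DOX against Oct4 +DOX and 1 against Sox2 +DOX. After normexp and quantile normalization, 1 was called with Oct4, 1 for Sox2 +DOX against rtTA +DOX and 0 in the difference of responses, and the cause was not tested.

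In what follows "joint" means normexp with quantile normalization. Signs reversed in 23 of 853 values of single genes, none with an adjusted p under 0.05. With Sox2, Tgm1 was 0.013 after joint correction and -0.78 to 0.12 with 1 array left out. With Oct4, Ivl was -0.049 after joint correction, -0.34 after quantile normalization and -0.72 to 1.19 with 1 array left out. Fabp5 was 0.038 centred on the median, 0.76 with a floor and -0.46 to 0.44 with 1 array left out. Sfn was -0.0085 after joint correction, -0.017 after quantile normalization and -0.23 to 0.27 with 1 array left out. Sprr1a was -1.84 to 0.36 and Tgm1 -0.41 to 1.76 with 1 array left out. In the difference of responses, Ly6d was -0.029 after joint correction, -0.040 after quantile normalization and -0.24 to 0.25 with 1 array left out, Fabp5 -0.091 to 1.30 and Sprr1a -0.13 to 2.08.

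With the replicate number as a block, 2, 3 and 2 genes were called with Sox2, both factors and Oct4, as without the block, and no count of called members changed. Slide as a block gave the same counts by construction. Over all genes with Sox2, calls split 577 higher to 911 lower, 833 to 744 when arrays were centred on the median (median change 0.10 in place of -0.11), 724 to 834 after quantile normalization and 943 to 974 after joint correction. The authors' deposited table gave 704 calls in place of 1488, no filter 936 and only the groups compared 649. With both factors only the groups compared gave 477 calls in place of 1222 and no filter 779. With Oct4 the joint correction gave 110 in place of 193 and quantile normalization alone 273. Sox2 +DOX against rtTA +DOX split 623 to 986, and 954 to 963 after joint correction, with 1048 calls in place of 1609 with no filter and 957 with only the groups compared. Sox2xOct4 +DOX against Oct4 +DOX split 455 to 382 and, centred, 411 to 587, with 544 calls with no filter and 68 with only the groups compared. Against Sox2 +DOX the split was 336 to 161, 306 to 272 centred and 308 to 277 after joint correction, with 49 calls with only the groups compared. In the difference of responses 32 calls became 7 after joint correction and 16 with a variance trend, and 4 higher to 28 lower became 12 to 35 centred (median 0.22 in place of -0.09) and 16 to 28 after quantile normalization. For the controls, 0 became 1 with a floor, 3 with the replicate block, 4 after quantile normalization, 5 centred and 13 with only the groups compared. Leaving out 1 array gave 167 to 1752 calls with Sox2, 117 to 1260 with both factors, 35 to 217 with Oct4, 196 to 2196 for Sox2 +DOX against rtTA +DOX, 312 to 818 for Sox2xOct4 +DOX against Oct4 +DOX, 81 to 673 against Sox2 +DOX, 5 to 52 in the difference of responses and 0 to 12 for the controls. Spots not above background hold surrogate values per the file headers, so a change between dim groups has no measured size.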
